A study of Mus musculus with 8 samples.

Results

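The 7 genes described here make, break down, load, clear and sense gamma-aminobutyric acid (GABA), the main inhibitory transmitter of the striatum. They are Gad1, Gad2, Slc32a1, Slc6a11, Abat, Gabbr1 and Gabbr2, and they were picked by symbol, for their known roles, out of 55032 genes in the deposited table. All 7 were measured well above the expression filter. RNA came from the striatum of 8 female C57BL/6 mice at postnatal day 60, 4 of them WT and 4 16p11.2+/-, and each mouse gave its own library. The 16p11.2+/- mice carry 1 intact and 1 deleted copy of a gene-rich segment of chromosome 7 in every cell, and none of the 7 genes lies on that chromosome. The labels name the mice by number, which is used below (WT-1015 to WT-1063, and DF-1018 to DF-1062 for 16p11.2+/-).

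GABA is made from glutamate by glutamate decarboxylase, whose 2 forms GAD67 and GAD65 are the products of Gad1 and Gad2. The vesicular transporter VGAT, from Slc32a1, loads it into synaptic vesicles, and after release it is taken up by membrane transporters such as GAT3, from Slc6a11, which is largely an astrocyte protein. The transaminase from Abat breaks it down in mitochondria. The GABA-B receptor is a G protein-coupled pair in which the Gabbr1 product binds GABA and the Gabbr2 product couples to the G protein. Medium spiny neurons, which make up most striatal neurons, are themselves GABA neurons.

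Per mouse, the genes of the table held from 15125051 to 16523429 counted reads. The deletion was checked on Mapk3 and Kctd13, which lie in it. Mapk3 had between 35.7 and 46.4 FPKM (counts scaled by gene length and by the library's total) in WT mice and between 20.7 and 22.3 in 16p11.2+/- mice, and Kctd13 had between 18.9 and 25.4 against between 9.42 and 12.2. The pieces of tissue were not alike. Summed over 10 medium spiny neuron markers, CPM (counts scaled to the library's total alone) was between 3618 and 6050.1 in WT mice, and 5579.5 and 5238 in DF-1018 and DF-1059, but 1382 in DF-1037 and 1042 in DF-1062. For 7 thalamus markers the sum was between 899 and 1536 CPM in WT-1063, DF-1018, DF-1037 and DF-1062, and between 198 and 351 in the other 4 mice. DF-1037 also had the highest sum of 6 cortical glutamatergic neuron markers (791 CPM) and DF-1062 the lowest (88.0). By the mean log2 CPM of these markers DF-1037 was again highest (6.06), but DF-1018 was lowest (1.97), with WT-1063 and DF-1062 next (2.25 each). The 4 pieces with high thalamus markers were 1 WT and 3 16p11.2+/- pieces, so that genotype and the make-up of the pieces are in part confounded. Choroid plexus markers summed to 5897 CPM in WT-1063, and oligodendrocyte markers scored between 7.61 and 8.20 in 16p11.2+/- pieces against between 8.22 and 8.62 in WT pieces (mean log2 CPM, exact permutation test, p = 0.0286, and 0.1 adjusted over 7 marker lists). No marker of these lists was at 0 in any mouse. In whole tissue, fewer cells of a type and less RNA per cell cannot be told apart.

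None of the 7 GABA genes differed between the genotypes past the threshold. Their estimated differences were all positive, that is higher in 16p11.2+/- striatum, with a median log2 fold change of 0.19 against -0.01 over all 18294 genes tested. With the quasi-likelihood test of edgeR and Benjamini-Hochberg adjustment over all genes, the adjusted p of the 7 genes was between 0.859 and 0.886. Across all genes tested, 0.109% passed an adjusted p of 0.05 (0.0164% higher and 0.0929% lower in 16p11.2+/- mice) and 4.32% an unadjusted p of 0.05, and of the 7 genes 0 passed either in edgeR. Without DF-1037, 3 of the 7 (Gad2, Slc32a1 and Abat) had an unadjusted edgeR p under 0.05, as had 5.69% of all genes in that fit, again with 0 past the adjusted threshold. DESeq2 and limma-voom also called 0 at the adjusted threshold, and each placed 1 of the 7, Slc6a11, under an unadjusted p of 0.05. The shares of all genes there were 2.92% in DESeq2 (of 35704 genes, without the expression filter) and 4.27% in limma-voom. Trend fits of limma on log2 FPKM, with 1 or 0.1 added, also called 0 and placed Slc6a11 alone there, as they did 4.00% and 3.97% of all genes. The groups overlapped in FPKM for each of the 7 genes, while 2.83% of all genes tested had groups that did not overlap, 1.21% with higher and 1.62% with lower values in 16p11.2+/- mice. A positive log2 fold change was found in 48.2% of all genes tested, and the 7 genes come from the same 8 libraries, so that their shared sign is not 7 separate observations.

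Measured per length in FPKM, the order of the levels over the 8 mice was Gabbr1 (114 ± 5.29, SD, n = 8), Gad2 (111 ± 26.7), Gad1 (90.6 ± 8.74), Abat (76.1 ± 13.2), Slc6a11 (56.5 ± 32.2), Slc32a1 (38.6 ± 6.66) and Gabbr2 (32.6 ± 12.6). These levels put the 7 genes between the 93.1st and the 98.9th percentile of the genes tested. Neighbours in this order were compared within each mouse. As the order came from these same values, the p-values are not those of pairs fixed beforehand. Gabbr1 was above Gad2 in 5 of 8 mice (exact paired permutation test, p = 0.484), in 4 of 4 WT mice but in 1 of 4 16p11.2+/- mice, whose mean was higher for Gad2, Slc6a11 above Slc32a1 in 6 of 8 (exact p = 0.242) and Slc32a1 above Gabbr2 in 6 of 8 (exact p = 0.250). Gad1 was above Abat in 7 of 8 mice (exact p = 0.0156), and Gad2 above Gad1 and Abat above Slc6a11 in 6 of 8 each (exact p = 0.0469 for both). Adjusted over the 6 neighbouring pairs, none of these exact permutation p-values was under 0.0938.

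**Figure D1:**
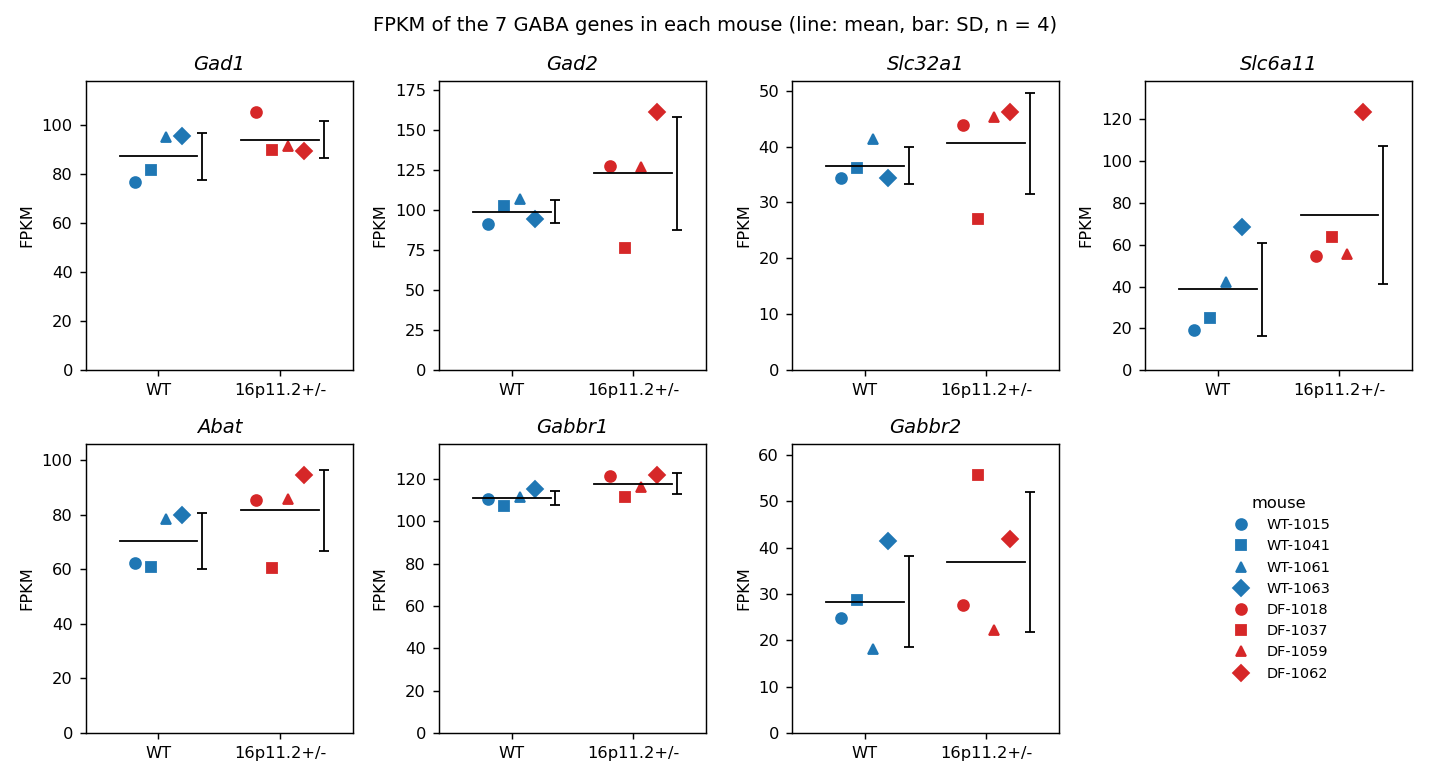
FPKM (vertical axes) of the 7 GABA genes in each of 4 WT (blue) and 4 16p11.2+/- (red) mice, with a symbol for each mouse, a line at the group mean and a bar of 1 SD. Slc6a11 ran from 19.2 to 123 and Gabbr1 only from 107 to 122, and the groups overlapped for all 7 genes.

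The synthesis genes are described first. Gad1 (ENSMUSG00000070880) spans chromosome 2, 70553072 to 70602014, forward strand, by the GENCODE M21 annotation of GRCm38, and Gad2 (ENSMUSG00000026787) spans 22622205 to 22693874 on the same chromosome and strand. No other annotated gene shares their exon sequence, and the processed copy Gad1-ps, to which Gad1 reads could be misplaced, held between 4 and 14 counts per mouse. These 2 genes encode the same enzyme activity, but their RNA did not move together between mice. For that reason, stretches upstream of their RefSeq start sites (GRCm38.p6) are shown. Each begins 250 bases before the RefSeq start and is cut before the first base of any annotated exon. Cut in this way, the stretch of Gad1 has 163 bases and that of Gad2 has 128, without the bases nearest the RefSeq start. That of Gad1 (chr2:70561879-70562041, forward strand) falls between exons of a longer annotated form of the gene, and that of Gad2 is chr2:22622077-22622204 on the forward strand. Capitals mark CG pairs, of which the Gad1 stretch has 4 and the Gad2 stretch 5.
Gad1: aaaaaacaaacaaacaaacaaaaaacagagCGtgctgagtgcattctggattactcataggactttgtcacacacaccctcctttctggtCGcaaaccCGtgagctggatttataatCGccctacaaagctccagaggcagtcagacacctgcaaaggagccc
Gad2: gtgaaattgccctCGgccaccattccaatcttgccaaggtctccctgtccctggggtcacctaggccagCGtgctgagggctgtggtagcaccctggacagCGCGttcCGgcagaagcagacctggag
Of all 32851 promoters in the RefSeq table, 46.7% have at least as many CG pairs in the stretch of the same length and place as that of Gad1, and 32.2% as that of Gad2. RefSeq stretches were matched for 6 of the 7 genes.

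Gad1 had an FPKM of 76.7, 81.6, 95.1 and 95.4 in WT-1015, WT-1041, WT-1061 and WT-1063, and of 105, 89.9, 91.5 and 89.4 in DF-1018, DF-1037, DF-1059 and DF-1062. One 16p11.2+/- mouse, DF-1018, was above every WT mouse and the other 3 lay within the WT range. The group means were 87.2 ± 9.50 (SD, n = 4) and 94.0 ± 7.55 (SD, n = 4; exact permutation test, two-sided, p = 0.314), with a log2 fold change of 0.09 (standard error 0.12, 95% interval from -0.17 to 0.35). With 1 mouse left out it ran from 0.02 (without DF-1018) to 0.15 (without DF-1062).

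Gad2 had an FPKM of 91.4, 103, 107 and 94.7 in the WT mice in the same order, and of 127, 76.2, 127 and 161 in the 16p11.2+/- mice. Thus 3 of the 4 16p11.2+/- mice were above every WT mouse and the other, DF-1037, was below every WT mouse. The SD of log2 CPM was 0.43 among 16p11.2+/- mice and 0.11 among WT mice. The means were 99.0 ± 7.26 (SD, n = 4) and 123 ± 35.1 (SD, n = 4; exact permutation test, p = 0.200). On the log2 scale this was a fold change of 0.29 (standard error 0.19, 95% interval from -0.15 to 0.72), and with 1 mouse left out it ran from 0.17 (without DF-1062) to 0.46 (without DF-1037), with an edgeR adjusted p of 0.999 and 0.810 in these fits. DF-1037 and DF-1062, the lowest and the highest mouse for Gad2, were the 2 mice with the lowest medium spiny neuron markers.

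The ratio of Gad2 to Gad1 FPKM, which does not depend on library size, was 1.19, 1.26, 1.13 and 0.992 in the WT mice and 1.21, 0.848, 1.39 and 1.80 in the 16p11.2+/- mice. It was lowest in DF-1037 and highest in DF-1062, with all WT mice between them. The mean log2 ratio was 0.15 higher in 16p11.2+/- mice (exact permutation test, p = 0.543, or 0.571 after adjustment over 3 ratios). Without DF-1062 this log2 difference turned to -0.02. Both genes together came to 186 ± 14.2 FPKM (SD, n = 4) for WT against 217 ± 36.4 (SD, n = 4) for 16p11.2+/- mice (p = 0.200 by exact permutation).

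Slc32a1 (ENSMUSG00000037771), the vesicular transporter gene, spans chromosome 2, 158610767 to 158615748, forward strand. As 24.9% of its exon sequence overlaps Gm14205 on the opposite strand and the strand setting of the counting is not given in the sources used here, part of its reads cannot be assigned with certainty. It had an FPKM of 34.4, 36.1, 41.4 and 34.4 in WT mice and of 43.9, 27.1, 45.2 and 46.2 in 16p11.2+/- mice. As for Gad2, 3 16p11.2+/- mice were above every WT mouse and DF-1037 was below them all. The means were 36.6 ± 3.31 (SD, n = 4) and 40.6 ± 9.05 (SD, n = 4; exact permutation test, p = 0.400), with a log2 fold change of 0.13 (standard error 0.16, 95% interval from -0.24 to 0.49) and, with 1 mouse left out, from 0.08 (without DF-1059 or DF-1018) to 0.28 (without DF-1037, edgeR adjusted p = 0.822). Set against the sum of Gad1 and Gad2, Slc32a1 was steadier, with a mean ratio of 0.197 ± 0.0112 for WT against 0.186 ± 0.0181 for 16p11.2+/- mice (SD, n = 4 each, p = 0.371 by exact permutation, 0.571 after adjustment over 3 ratios).

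The score of GABA interneuron markers (Pvalb, Sst, Npy, Nos1, Lhx6 and Th) was slightly higher in 16p11.2+/- pieces, with a mean log2 CPM between 4.79 and 4.92 against between 4.44 and 4.78 in WT pieces. Their sum was between 247 and 317 CPM against between 226 and 259. The single markers did not move together. In DF-1037, Pvalb, Sst and Npy (107, 112 and 28.4 CPM) were above every WT mouse. In the same mouse Nos1, Lhx6 and Th (53.3, 15.18 and 1.69 CPM) were below every WT mouse. Pvalb was also high in WT-1063 (79.0 CPM), the WT piece with high thalamus markers. Of these 6 markers 5 had a positive log2 fold change and 0 passed the edgeR adjusted threshold. The exact permutation p of the score was 0.0286, the smallest that 4 against 4 mice can give, and 0.1 adjusted over 7 marker lists. All 10 medium spiny neuron markers had a negative log2 fold change, and 0 passed. Astrocyte markers scored between 7.97 and 8.14 in WT pieces and between 7.93 and 8.19 in 16p11.2+/- pieces (exact permutation test, p = 0.886). The part of the GABA interneuron markers in the values of Gad1, Gad2 and Slc32a1 was not tested. With the medium spiny neuron score as covariate the log2 fold changes of these 3 genes were 0.16, 0.32 and 0.24, with that of thalamus 0.06, 0.36 and 0.23, with the astrocyte score 0.09, 0.27 and 0.12, with the cortical score 0.05, 0.16 and 0.05, and with the choroid plexus score 0.11, 0.19 and 0.04. Their edgeR adjusted p was at least 0.799 in each of these fits.

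**Figure D2:**
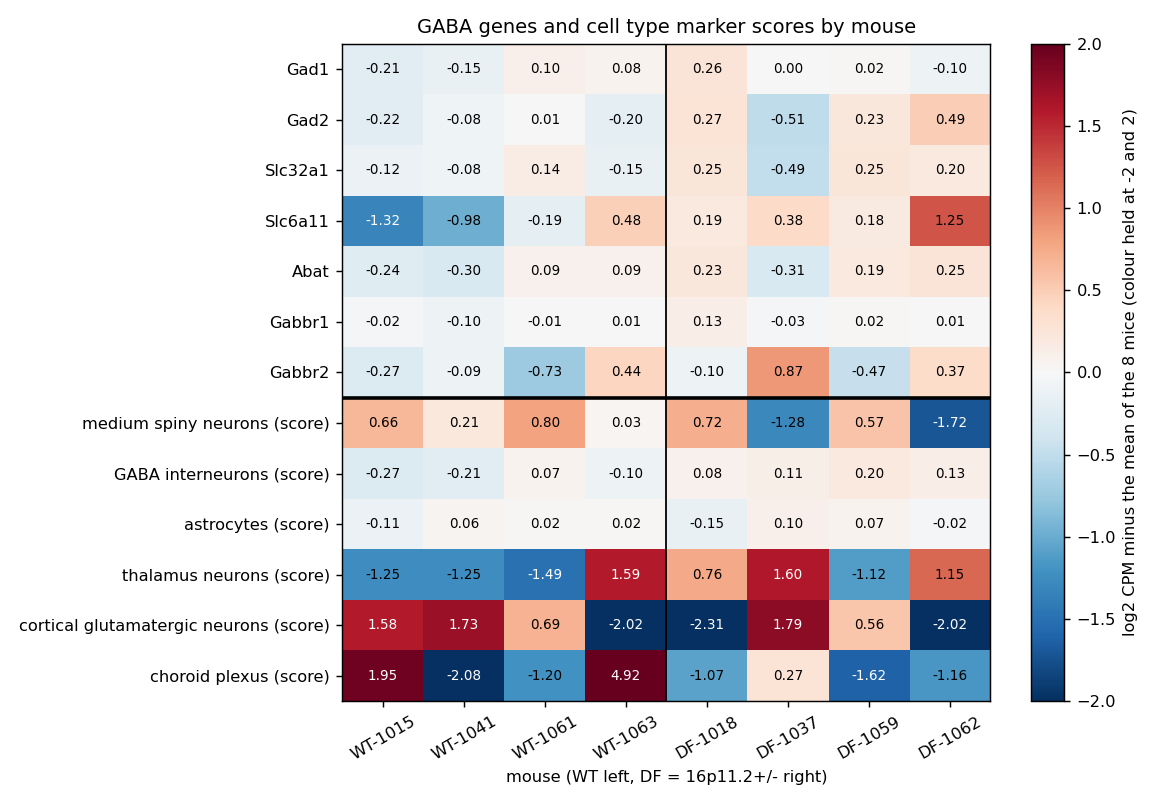
Each cell gives log2 CPM minus the mean of the 8 mice, for the 7 GABA genes (upper rows) and for 6 marker scores, each the mean log2 CPM of its list (lower rows), by mouse (columns, WT left and 16p11.2+/- right). Gad2 and Slc32a1 were lowest in DF-1037, Slc6a11 was highest in DF-1062, and both mice had the lowest medium spiny neuron scores (6.75 and 6.31).

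Slc6a11 (ENSMUSG00000030307), the GAT3 gene, varied most. It spans chromosome 6, 114131241 to 114249952, forward strand, with no exon sequence shared with another gene. The 250 bases before its start are shown because this gene had the widest range among mice. They are chr6:114130991-114131240 on the forward strand, with 25 CG pairs in capitals, and 10.7% of all promoters have at least as many in the same stretch.
Slc6a11: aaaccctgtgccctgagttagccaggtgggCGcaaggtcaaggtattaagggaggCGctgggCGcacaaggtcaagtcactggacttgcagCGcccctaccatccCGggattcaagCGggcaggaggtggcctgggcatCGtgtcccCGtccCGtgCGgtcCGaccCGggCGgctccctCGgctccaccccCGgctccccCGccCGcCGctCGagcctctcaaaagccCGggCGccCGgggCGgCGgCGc
Its FPKM was 19.2, 24.8, 42.4 and 68.6 in the WT mice and 54.4, 63.7, 55.6 and 123 in the 16p11.2+/- mice, a 6.44-fold range over the 8 mice. Of the WT mice 3 were below every 16p11.2+/- mouse, and WT-1063 lay above 3 of the 4 16p11.2+/- mice. The means were 38.8 ± 22.2 (SD, n = 4) and 74.3 ± 33.0 (SD, n = 4; exact permutation test, p = 0.143). On the log2 scale this was a fold change of 0.90 (standard error 0.41, 95% interval from -0.02 to 1.83), with an unadjusted edgeR p of 0.0551 and an adjusted p of 0.859. Its SD of log2 CPM within groups was above that of 90.7% of all genes tested, and above that of 97.4% of the 741 genes within 0.5 log2 CPM of its own level.

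The log2 fold change of Slc6a11 changed when single mice were left out and when marker scores were added as covariates. Without DF-1062 the log2 fold change was 0.60 and without WT-1063 it was 1.33 (edgeR adjusted p = 0.999 and 0.512). WT-1063, the WT mouse with the highest Slc6a11, was also the WT mouse with high thalamus markers. DF-1018 and DF-1059, however, had like values of Slc6a11 (54.4 and 55.6 FPKM) at thalamus marker sums of 899 and 279 CPM. With the thalamus score as covariate the log2 fold change was 0.60 and with the medium spiny neuron score 0.54 (edgeR adjusted p of at least 0.999 for both), while with the cortical score it was 0.78, with the astrocyte score 0.93 and with the choroid plexus score 1.19 (edgeR adjusted p = 0.941, 0.878 and 0.732). Without both DF-1037 and DF-1062 it was 0.52. In each of these fits it stayed positive. The part of the make-up of the pieces in the values of Slc6a11 was not tested.

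Abat (ENSMUSG00000057880), the GABA transaminase gene, spans chromosome 16, 8513429 to 8621568, forward strand. Its FPKM was 62.3, 61.0, 78.5 and 80.1 in WT mice and 85.4, 60.5, 85.9 and 94.8 in 16p11.2+/- mice. The pattern was that of Gad2 and Slc32a1, with 3 16p11.2+/- mice above every WT mouse and DF-1037 below them all. Over all genes tested, 7.56% had at least 3 of 4 16p11.2+/- mice above every WT mouse, as Gad2, Slc32a1, Abat and Gabbr1 did. The means of Abat were 70.5 ± 10.2 (SD, n = 4) and 81.6 ± 14.7 (SD, n = 4; exact permutation test, p = 0.229), with a log2 fold change of 0.19 (standard error 0.15, 95% interval from -0.16 to 0.54). With 1 mouse left out it ran from 0.12 (without WT-1041) to 0.31 (without DF-1037), and with a score as covariate from 0.09 (cortical) to 0.24 (medium spiny neurons).

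The 2 subunit genes of the GABA-B receptor differed in their spread across mice, 1.14-fold for Gabbr1 and 3.07-fold for Gabbr2. Gabbr1 (ENSMUSG00000024462) spans chromosome 17, 37045966 to 37075067, forward strand, and Gabbr2 (ENSMUSG00000039809) spans chromosome 4, 46662305 to 46991873, reverse strand, and neither shares exon sequence with another gene. As 1 receptor needs both products while the 2 RNAs differed widely in spread, stretches upstream of their starts are shown. These are chr17:37045716-37045965 (forward strand) for Gabbr1 and chr4:46991874-46991964 (reverse strand) for Gabbr2. That of Gabbr1 has 250 bases. That of Gabbr2 was cut to 91 bases at an annotated exon, without the bases nearest the RefSeq start. The 2 stretches hold 16 and 15 CG pairs, in capitals, and 25.4% and 1.44% of all promoters have at least as many in the same stretch.
Gabbr1: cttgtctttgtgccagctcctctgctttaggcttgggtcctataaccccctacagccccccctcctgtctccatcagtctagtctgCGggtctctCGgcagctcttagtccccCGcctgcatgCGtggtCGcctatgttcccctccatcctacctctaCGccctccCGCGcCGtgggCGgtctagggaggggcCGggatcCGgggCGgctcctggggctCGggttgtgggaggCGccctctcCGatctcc
Gabbr2: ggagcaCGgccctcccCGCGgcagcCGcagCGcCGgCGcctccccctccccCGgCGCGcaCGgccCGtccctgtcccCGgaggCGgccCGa
Gabbr1 had an FPKM of 110.4, 107, 112 and 115 in WT mice and of 121, 112, 116 and 122 in 16p11.2+/- mice. Of the 4 16p11.2+/- mice 3 were above every WT mouse and DF-1037 lay among the WT mice, but the whole range was only 1.14-fold. Its SD of log2 CPM within groups was below that of nearly all genes, at the 1.65th percentile of those tested. The means were 111 ± 3.37 (SD, n = 4) and 118 ± 4.89 (SD, n = 4; exact permutation test, p = 0.0857), and the log2 fold change of 0.06 (standard error 0.08) had a 95% interval from -0.12 to 0.25 and ran from 0.04 to 0.09 with 1 mouse left out.

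Gabbr2 had an FPKM of 24.8, 28.8, 18.2 and 41.5 in WT mice and of 27.7, 55.7, 22.2 and 41.8 in 16p11.2+/- mice. High values were found in both genotypes, in WT-1063, DF-1037 and DF-1062. These were the 3 mice with the lowest medium spiny neuron scores and also those with the highest thalamus scores. The means were 28.3 ± 9.82 (SD, n = 4) and 36.9 ± 15.1 (SD, n = 4; exact permutation test, p = 0.400). Its log2 fold change, 0.36 (standard error 0.32, 95% interval from -0.36 to 1.08), did not keep its sign: it was -0.08 with the thalamus score as covariate, -0.06 with the medium spiny neuron score and -0.17 without DF-1037 and DF-1062. With the choroid plexus score it was 0.60. With 1 mouse left out it ran from 0.08 (without DF-1037) and 0.20 (without WT-1061) to 0.55 (without DF-1059) and 0.60 (without WT-1063). The ratio of Gabbr2 to Gabbr1 FPKM was 0.225, 0.269, 0.163 and 0.360 in WT mice and 0.228, 0.499, 0.191 and 0.343 in 16p11.2+/- mice (exact permutation test on the log2 ratio, p = 0.571, also after adjustment over 3 ratios).

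**Figure D3:**
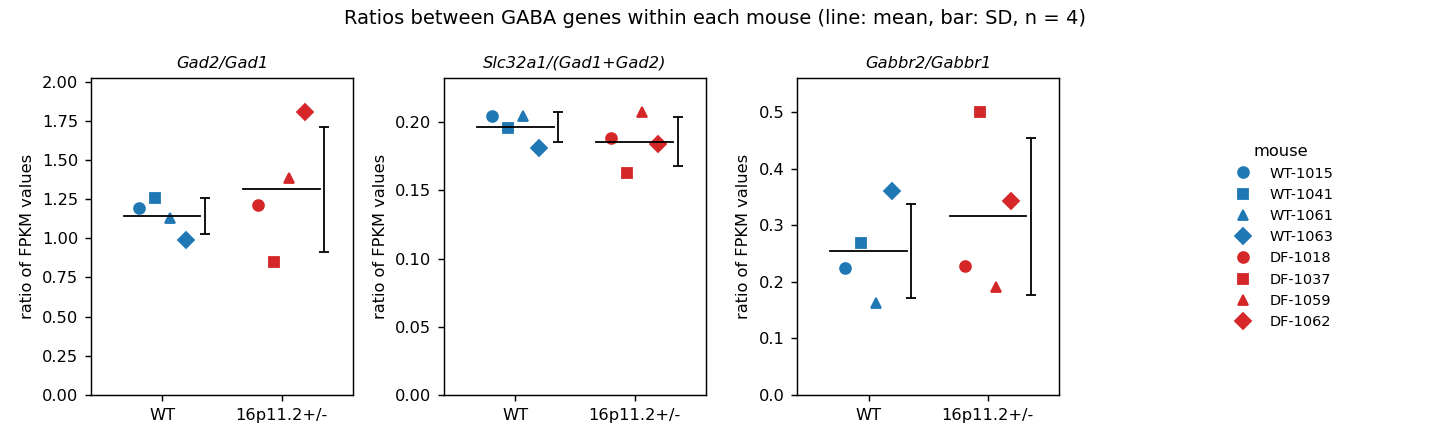
Ratios of FPKM values within each mouse for Gad2 to Gad1, Slc32a1 to the sum of Gad1 and Gad2, and Gabbr2 to Gabbr1 (vertical axes), with lines at group means and bars of 1 SD. DF-1037 had the lowest Gad2 to Gad1 ratio (0.848) and the highest Gabbr2 to Gabbr1 ratio (0.499).

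**Figure D4:**
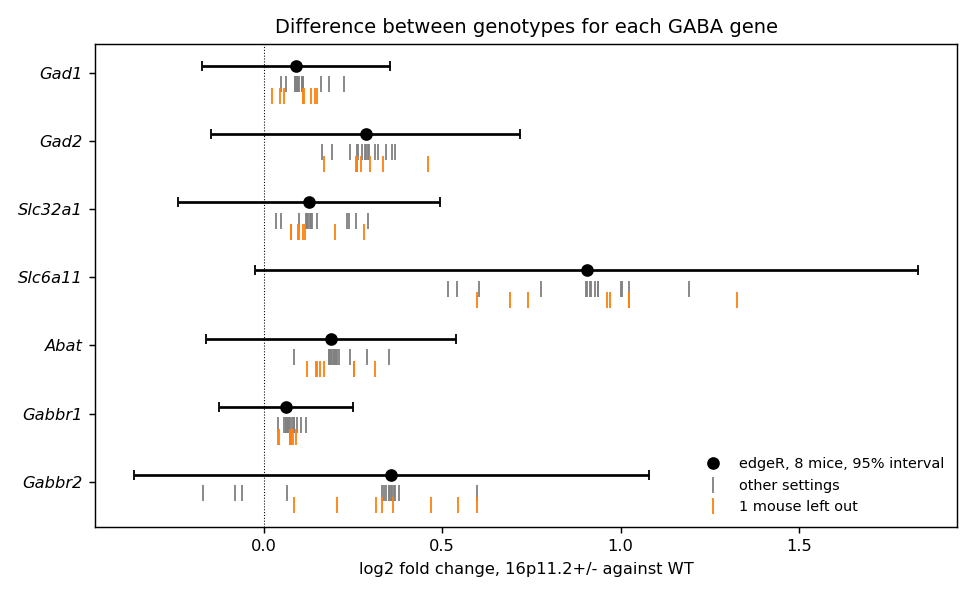
Log2 fold change of 16p11.2+/- against WT (horizontal axis) for the 7 genes, as points with 95% intervals, with grey ticks for other settings and orange ticks for fits without 1 mouse. All 7 intervals include 0, and ticks below 0 are seen for Gabbr2.

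Over the 8 mice, Gad2, Slc32a1 and Abat varied alike, with Pearson's r of log2 CPM between 0.81 and 0.92 among the 3 pairs. Gad1 followed Gad2 less closely (r = 0.21). Gabbr2 ran against Slc32a1 (r = -0.66). These 21 pairwise values are descriptions over n = 8 mice that share libraries and pieces of unequal make-up, and no p is given. Among 11072 other genes with a mean log2 CPM of at least 3, the 3 most like each member by Pearson's r over the 8 mice were Pcdhgc3, Clcn3 and Pdzd8 for Gad1 (r from 0.96 to 0.97), Mid2, Gm14399 and Vstm2l for Gad2 (0.97 to 0.98), and Caly, Aff4 and Fbxo38 for Slc32a1 (0.98 each). For Slc6a11 they were Gpr107, Zfp219 and Sparc (0.99 each). For Abat they were Cntnap2, Nsg1 and Uggt1 (0.97 to 0.99), for Gabbr1 Nfs1, Maneal and AU040320 (0.96 to 0.98), and for Gabbr2 Bok, Ildr2 and Hsd11b1 (0.98 each). Pcdhgc3 shares exons with other protocadherin genes, so its count is uncertain. As the best of so many genes over 8 mice, high values of r are found by the search itself.

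Other genes of the pathway were read from a list of 28, of which 25 were tested. Slc6a12, with between 2 and 23 counts per mouse, was below the expression filter and was not among the genes tested by edgeR. It had 0.138 ± 0.140 FPKM for WT against 0.295 ± 0.167 for 16p11.2+/- mice (SD, n = 4 each, exact permutation p = 0.171). Piantp was not analysed here, and Jakmip1, whose symbol stands on 2 rows, was given no value. Of the 25, 0 passed the edgeR adjusted threshold in either direction (adjusted p between 0.859 and 0.981), and the log2 fold change was above 0 for 13 and below 0 for 12 (median 0.05). In edgeR 2 of them had an unadjusted p under 0.05 (4.32% of all genes did), in DESeq2 3 (2.92%) and in limma-voom 2 (4.27%). The DESeq2 share is over 35704 genes, without the expression filter.

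Both genes with an unadjusted edgeR p under 0.05 had lower values in 16p11.2+/- striatum. Gnai3, an inhibitory G protein alpha subunit, had an FPKM of 15.1, 13.8, 14.2 and 16.1 in WT mice and of 12.4, 13.2, 12.9 and 13.0 in 16p11.2+/- mice. It was the 1 gene of the 25 whose groups did not overlap, where 2.83% of all genes tested had such groups (log2 fold change -0.23, standard error 0.07, exact permutation p = 0.0286, edgeR adjusted p = 0.859). Slc38a2, a glutamine carrier, had 26.0 ± 1.87 FPKM for WT against 23.0 ± 0.800 for 16p11.2+/- mice (SD, n = 4 each, log2 fold change -0.19, exact permutation p = 0.0857, edgeR adjusted p = 0.859). Gnao1, Gnai1 and Gnai2, the more abundant alpha subunits of the same family, had log2 fold changes of -0.09, -0.05 and 0.10.

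In the supply of glutamate, Slc38a1, the neuronal glutamine carrier, had a log2 fold change of 0.29, and Glul (glutamine synthetase of astrocytes) of -0.08 around a level of 589 ± 36.6 FPKM in WT mice (SD, n = 4). In the breakdown of GABA, Aldh5a1, the succinate semialdehyde dehydrogenase that acts after the Abat product, had 21.7 ± 2.54 FPKM for WT against 25.8 ± 3.29 for 16p11.2+/- mice (SD, n = 4 each, log2 fold change 0.23, exact permutation p = 0.143). The auxiliary GABA-B subunits Kctd8, Kctd12, Kctd12b and Kctd16 had log2 fold changes from -0.14 to 0.23. Of the potassium channel subunits opened through GABA-B receptors, Kcnj3, Kcnj6 and Kcnj9 had values from 0.14 to 0.46, with the highest FPKM of Kcnj3 and Kcnj9 in DF-1037 (27.4 and 36.8), the mouse with the highest Gabbr2. Kcnj5 had the largest value on the list, a log2 fold change of 1.61 (standard error 0.75, exact permutation p of the FPKM = 0.229), at an FPKM of 0.155, 0.237, 0.482 and 0.621 in WT mice and 0.490, 0.236, 0.945 and 3.09 in 16p11.2+/- mice. The last of these values, in DF-1062, stood far above the other 7.

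**Figure D5:**
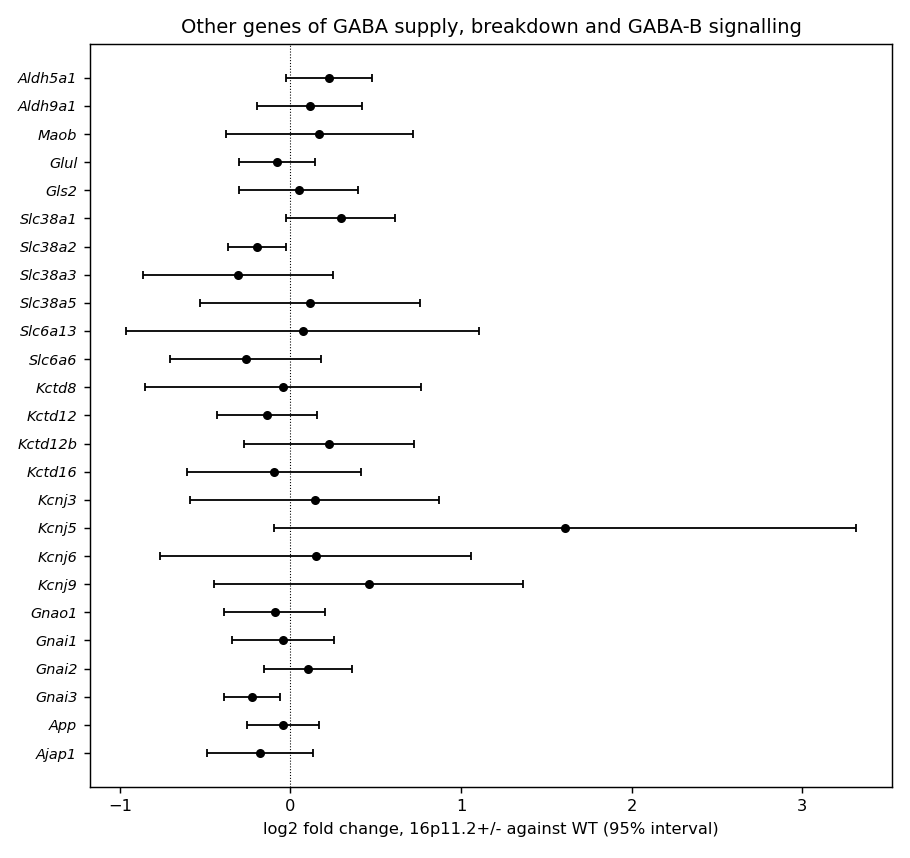
Log2 fold change of 16p11.2+/- against WT with 95% intervals (horizontal axis) for the 25 tested genes of GABA supply, breakdown and GABA-B signalling. Only Slc38a2 and Gnai3 have intervals that exclude 0, neither past the adjusted threshold, and Kcnj5 has the widest.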

How the data were processed

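Striatal RNA of 8 mice was sequenced. After trimming, the authors aligned reads with Hisat2 and deposited raw counts per gene. The authors also deposited FPKM, which is each count over a constant length of the gene and over that mouse's total. The submitters' processing notes also list Bowtie 0.12.2, without a role. The annotation and the strand setting are not given in the sources used here. Lengths implied by FPKM were within 1% of GENCODE M21 (GRCm38) exon lengths for 97.6% of 35149 genes, so positions were taken from it. The table of the authors' own comparison (group means, fold changes and p-values) and a summary of FPKM in bins were not used.

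Differences were tested on the counts by edgeR 4.0.16 under R 4.3.3, with TMM factors, filterByExpr (count of 10, total of 15), the quasi-likelihood test, no covariate and Benjamini-Hochberg adjustment over the 18294 genes kept, at a threshold of 0.05. For FPKM and ratios, exact permutation over the 70 assignments was used, two-sided, whose smallest p is 0.0286. Sums of marker CPM were scaled by the library's total alone, while log2 CPM (prior count of 2) and the CPM of exact tests also carry TMM factors. Marker scores are the mean log2 CPM of a list. Intervals are 95% confidence intervals of the log2 fold change between genotypes, not ranges of single mice. Libraries of the same genotype differed by at least 8.88 times the sampling noise (chi-square over its degrees of freedom), and each counted as 1 sample. The labels give no batch. Code was tested on simulated counts. The alternatives tried were DESeq2 (1.42.0), voom and trend fits of limma (3.58.1), the latter on log2 FPKM after adding 1 or 0.1, RLE factors, library totals, other filters, marker scores as covariates and each mouse left out. Fits without 2 or 3 mice of low medium spiny neuron score were added after seeing the data. Named genes were the 7 members, the pathway and marker lists, and the 3 genes most like each member. A gene of the planned pathway list is not reported here, and the counts leave it out. The members and lists were chosen with earlier results of these data known.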

Additional observations from a re-analysis of the deposited data

Results flagged for a closer look

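Among 84 groups of 4 values examined, 5 held a mouse set apart from the remaining 3, its gap to the nearest of them taking up more of the group's range than Dixon's 95% critical value allows, and chance gives about 1 in 20. Gad1 had 105 FPKM in DF-1018 against 89.4 to 91.5 in the other 16p11.2+/- mice (a share of 0.872). Slc32a1 had 27.1 FPKM in DF-1037 against 43.9 to 46.2 (0.880), and Slc6a11 had 123 FPKM in DF-1062 against 54.4 to 63.7 (0.865). Kcnj3 had 27.4 FPKM in DF-1037 against at most 12.8 (0.886). The thalamus score was 7.44 in WT-1063 against 4.37 to 4.61 in the other WT mice (0.922).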

How the results depend on the processing

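The number of the 7 GABA genes past the adjusted threshold was 0 in each of 15 alternatives and in each of the 8 fits without 1 mouse, as was that of the 25 other pathway genes and that of the exact tests on CPM in place of FPKM and on ratios of raw counts. With 1 mouse left out exact tests cannot go below 0.0571, and with more left out not below 0.133, so that those counts say nothing of stability. The log2 fold changes of Gad1, Gad2, Slc32a1, Slc6a11, Abat and Gabbr1 kept a positive sign throughout, with that of Slc6a11 between 0.52 and 1.33. The median log2 fold change of the other pathway genes lay between -0.057 and 0.087. Gabbr2 reversed to -0.082 with the thalamus score, to -0.061 with the medium spiny neuron score and to -0.17 without DF-1037 and DF-1062, when its FPKM difference was -3.38. With a mouse left out, the log2 difference of the Gad2 to Gad1 ratio ranged from -0.018 (without DF-1062) to 0.35. The number of genes past the threshold over the whole table was 20, and 29 by DESeq2, 13 with the thalamus score, 11 without DF-1037 and DF-1062, and between 8 and 18 with a mouse left out. An unadjusted edgeR p under 0.05 was held by 3 of the 7 genes without DF-1037, 2 without DF-1037 and DF-1062, and 4 without WT-1063 as well (5.69%, 4.03% and 8.49% of all genes), and by 1, Slc6a11, without a filter, with the cortical or the choroid plexus score and without WT-1063 alone (3.82%, 3.25%, 6.66% and 8.21% of all genes). The cause of these shifts was not tested. No paired analysis was made, as the labels used here give no pairing of mice across the genotypes.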
